A study of Mus musculus with 24 samples.

Results

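The p53 target genes described here are 34 genes listed by symbol as known targets of the transcription factor p53, and all 34 were found among the 55421 genes of the count table. RNA was sequenced from sorted epithelial cells of small intestinal crypts of 8 mice. The hom mice (knockout, n = 4) were Setd1aFC/FC; Lgr5-eGFP-CreERT2 and the het mice (control, n = 4) were Setd1aFC/+; Lgr5-eGFP-CreERT2. All mice of both genotypes, so also the het controls, carried an FC allele and the Cre transgene and received 1 mg tamoxifen intraperitoneally on each of 3 consecutive days, with cells taken 4 days after induction, while the sources used here do not give the age of the mice. Each mouse gave 1 library of a stem, a transit-amplifying (TA) and a Paneth fraction, sorted with EpCAM, CD24 and CD45 antibodies and a dead cell stain, so that 24 libraries fall into 6 groups of 4. The Cre is under Lgr5, a gene of crypt base stem cells, and the sources used here do not say what share of the cells recombined the FC allele. Setd1a encodes a histone H3 lysine 4 methyltransferase.

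p53 is held low in unstressed cells by Mdm2, a ubiquitin ligase whose own gene p53 activates. DNA damage and other stresses release it, and it then binds a response element made of a pair of 10-base half-sites to raise genes that arrest the cell cycle, repair DNA or start cell death. In the intestinal epithelium this programme is best known from irradiated crypts, where Pmaip1 (Noxa), Bbc3 (Puma) and Cdkn1a (p21) set how cells die or stop dividing.

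The members are grouped here by role: 8 genes of the cell cycle and growth, Mdm2 as feedback, 8 genes of intrinsic cell death, 3 death receptors, 3 regulators of p53 output and survival, 5 DNA repair genes and 6 genes of stress metabolism or secreted factors. RefSeq promoter sequences on GRCm38.p6, each 300 bases from 250 before to 50 after a start site, matched 26 of the 34 members. The promoters of the 5 members on which the results below turn most are shown from 5′ to 3′ on the strand of the gene. Ephx1, Ccng1 and Plk2 were higher in hom stem libraries without overlap, Cdkn1a differed between all 3 fractions and Btg2 between animals. Capitals mark any match on either strand to the p53 half-site consensus, to CATGNNNNNNCATG, the core spacing of a full p53 element, or to TGACGTCA, the palindrome that factors of the ATF and CREB families bind, and a half-site may overlap the CATGNNNNNNCATG match.
Ephx1 (chr1:181017520-181017819, minus strand): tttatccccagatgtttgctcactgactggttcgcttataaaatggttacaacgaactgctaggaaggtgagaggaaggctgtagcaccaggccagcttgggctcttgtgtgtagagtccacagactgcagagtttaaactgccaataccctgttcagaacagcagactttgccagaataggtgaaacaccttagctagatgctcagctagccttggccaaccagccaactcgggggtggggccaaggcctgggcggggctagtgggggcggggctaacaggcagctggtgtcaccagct
Ccng1 (chr11:40755237-40755536, minus strand): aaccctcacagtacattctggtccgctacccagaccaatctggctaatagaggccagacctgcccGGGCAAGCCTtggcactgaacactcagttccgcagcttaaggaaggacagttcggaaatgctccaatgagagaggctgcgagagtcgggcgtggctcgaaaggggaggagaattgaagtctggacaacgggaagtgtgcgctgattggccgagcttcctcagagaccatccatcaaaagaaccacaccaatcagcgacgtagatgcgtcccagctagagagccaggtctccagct
Plk2 (chr13:110394794-110395093, plus strand): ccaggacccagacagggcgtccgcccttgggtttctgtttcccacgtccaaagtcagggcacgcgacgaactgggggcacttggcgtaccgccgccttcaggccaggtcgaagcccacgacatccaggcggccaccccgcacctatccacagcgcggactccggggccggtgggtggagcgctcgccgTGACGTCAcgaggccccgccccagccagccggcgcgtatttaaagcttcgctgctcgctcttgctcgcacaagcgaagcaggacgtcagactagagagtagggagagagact
Cdkn1a (chr17:29090729-29091028, plus strand, the upstream of 2 start sites): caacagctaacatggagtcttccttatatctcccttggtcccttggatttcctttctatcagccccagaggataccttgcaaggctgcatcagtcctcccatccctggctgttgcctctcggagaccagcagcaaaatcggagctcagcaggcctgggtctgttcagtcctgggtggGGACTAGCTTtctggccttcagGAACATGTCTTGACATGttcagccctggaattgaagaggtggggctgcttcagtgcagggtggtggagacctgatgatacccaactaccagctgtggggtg
Btg2 (chr1:134079106-134079405, minus strand): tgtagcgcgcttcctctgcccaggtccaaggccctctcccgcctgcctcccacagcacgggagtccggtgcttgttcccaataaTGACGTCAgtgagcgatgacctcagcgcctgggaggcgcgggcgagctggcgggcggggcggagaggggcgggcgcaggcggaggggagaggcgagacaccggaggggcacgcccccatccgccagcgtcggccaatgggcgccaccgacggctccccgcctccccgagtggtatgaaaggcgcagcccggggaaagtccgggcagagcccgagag

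The 26 members have 39 promoters in the table, since a gene may have several start sites. The p53 half-site consensus was found in 10 of the 39, from 9 members (Aen, Bax, Ccng1, Cdkn1a, Ei24, Gadd45a, Mdm2, Polk and Sesn1), and 8.36% of all 32851 promoters held it. CATGNNNNNNCATG was found in 1 of the 39, of Cdkn1a, against 0.712% of all promoters. TGACGTCA was found in 2 of the 39, of Btg2 and Plk2, against 1.79% of all promoters. In the Ephx1 window none of these letters was found. That window is at the only start site given for Ephx1 and lies inside the gene as counted, whose 5′ end at chr1:181020904 was not searched. All of these motif counts are matches of letters in a window and say nothing of binding.

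Libraries held 24.73 M to 47.05 M counts on genes. The 10 genes of highest count took 27.2% to 57.2% of the counts in hom Paneth and 18.8% to 43.6% in het Paneth libraries, and at most 23.7% elsewhere. Levels are given as CPM, which scales each count to the library's total, with 1 TMM scaling over the 24 libraries, and values of single libraries are in the order BN45, BO25, BO57 and BP04 for hom mice and BN44, BO27, BO58 and BP03 for het mice. Lgr5 lay at 179.7 to 219 CPM in hom and 138.5 to 169 CPM in het stem libraries and at 5.5 to 16.0 CPM in TA libraries of both genotypes, and Lyz1 was at least 30610 CPM in every Paneth library. The Paneth fraction also held tuft and enteroendocrine transcripts (Dclk1 at 361 to 1173 CPM and Gip at 2449 to 5792 CPM over both genotypes), and the TA fraction held goblet transcripts (Muc2 at 417 to 1809 CPM), while Cd3e of T cells was at or near 0 in all libraries. Of 10 marker lists, none passed for its summed level between genotypes in any fraction by an exact two-sided permutation test of 4 against 4 (p from 0.114 to 1.00, where the smallest p possible is 0.0286). Setd1a itself lay at 3.73 to 6.85 CPM in hom and 4.05 to 7.01 CPM in het stem libraries, at 4.51 to 6.65 CPM in hom and 3.48 to 6.71 CPM in het TA libraries, and at 4.82 to 7.22 CPM in hom and 6.44 to 14.8 CPM in het Paneth libraries, all with overlap, and since all its exons were counted this does not check the deletion. Trp53, the gene of p53, lay at 105 to 168 CPM in hom and 75.5 to 149.9 CPM in het stem libraries, with overlap in the other fractions too. In bulk samples fewer cells of a type and less RNA per cell cannot be told apart.

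Animals BN45 (hom) and BN44 (het) stood apart from the other 6 in several members, and they did so in both genotypes. Btg2, an antiproliferative partner of the CCR4-NOT deadenylase, was at 458.5 and 595 CPM in their stem libraries, against 46.4 to 108 CPM in the stem libraries of the other 6 animals. It was at 339 and 397 CPM in their TA libraries, against 42.0 to 90.8 CPM, and at 369 and 375 CPM in their Paneth libraries, against 67.1 to 133 CPM. The BN animal was thus the highest of its group in all 6 groups, without overlap. Of the 34 members Btg2 alone had this pattern, and 0.784% of 19396 genes over the whole table did. Pmaip1, the BH3-only protein Noxa, was at 263 and 274 CPM in the stem libraries of the BN animals, against 33.5 to 82.1 CPM in the other 6, and at 132 and 158 CPM, against 27.0 to 79.5 CPM, in TA libraries. Plk3, a stress-activated polo-like kinase, was at 12.8 and 18.6 CPM, against 0.876 to 3.82 CPM in stem, and at 13.6 and 24.4 CPM, against 2.23 to 6.47 CPM in TA libraries. In both genes the BN animal was highest in 5 of 6 groups, the exception being hom Paneth libraries.

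The same animals were highest in 9 of 13 immediate early and dissociation genes in all 6 groups, for example Fos at 825 and 1082 CPM, against 113 to 270.5 CPM, and Atf3 at 535.5 and 720.0 CPM, against 30.7 to 67.6 CPM, in stem libraries. Immediate early genes are induced within minutes by many stimuli, cell dissociation among them, and Btg2 and Plk3 are also known as such genes. The sources used here give no dissection date, litter or batch, and the part of these transcripts in the members' levels was not tested. Among members with a group mean of at least 1 CPM, the widest spreads within a group were in these same 3, with an SD of 1.39 times the mean for Plk3, 1.36 times for Btg2 and 1.21 times for Pmaip1 in het stem libraries. Because each genotype has 1 such animal, the genotype comparisons are given with both and, where it matters, without both.

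**Figure D1:**
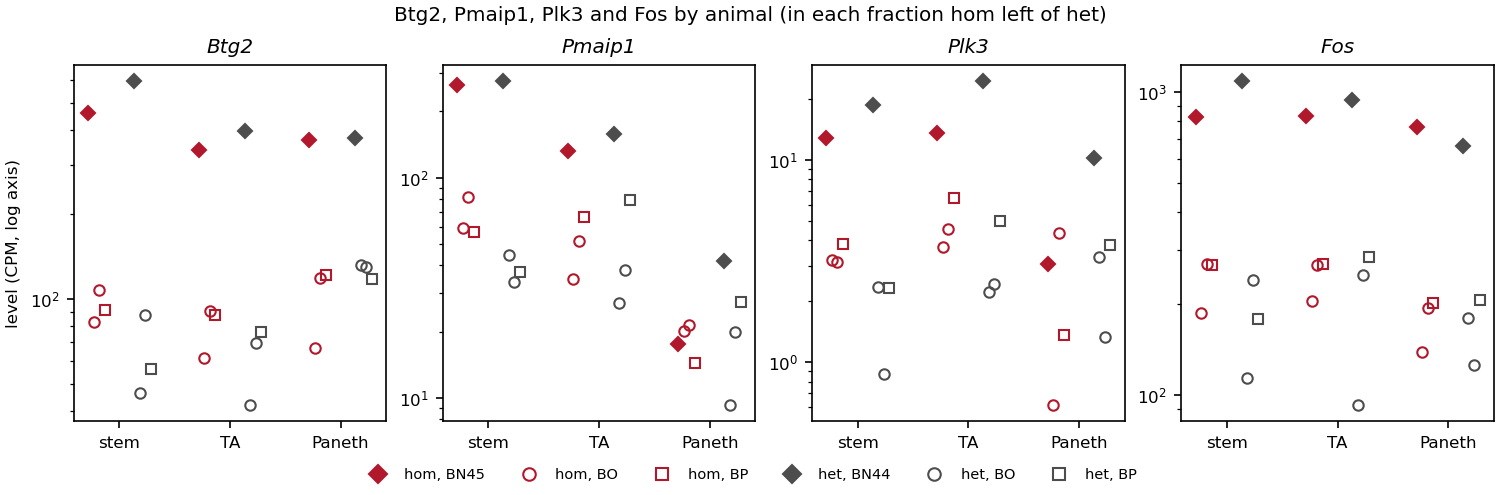
Levels of Btg2, Pmaip1, Plk3 and the immediate early gene Fos in each library (CPM, log axis) by fraction, hom left of het, with filled diamonds for BN45 and BN44, open circles for BO animals and open squares for BP animals. In stem and TA libraries the diamonds lie above all open symbols in all 4 panels, for Btg2 at 339 to 595 CPM.

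Levels between genes were compared per kilobase of exon. Perp, a tetraspan protein of cell junctions, was the highest member in all 6 groups, with 76.4 CPM per kb in hom and 77.8 CPM per kb in het stem libraries, and Btg2 and Ccng1 were among the top 4 of every group. Cdkn1a was among the top 3 in the Paneth groups, at 61.9 CPM per kb in hom and 56.3 CPM per kb in het, and at 3.77 and 2.35 CPM per kb in hom and het stem libraries. Bbc3, the BH3-only protein Puma, was below 1 CPM on average in every group, with at most 36 counts in a library and 0 counts in 2 libraries. Phlda3, an inhibitor of Akt, was below 1 CPM on average in 5 groups, the exception being hom stem libraries. Between 2 and 4 members per group had a mean under 1 CPM.

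The first question was whether p53 targets differ between hom and het cells of the same fraction. By the edgeR quasi-likelihood test at a Benjamini-Hochberg adjusted p under 0.05, none of the members passed in any fraction: 0 of 33 tested in stem, 0 of 32 in TA and 0 of 33 in Paneth libraries. Over all genes tested, 0.0125%, 0% and 0% passed (2 of 16056 in stem, 0 of 15925 in TA and 0 of 16108 in Paneth libraries). At an unadjusted p under 0.05, 6 members were higher and 0 lower in hom stem libraries (all genes 2.76% and 3.97%), 3 higher and 0 lower in TA (2.91% and 3%), and 1 higher and 1 lower in Paneth libraries (0.919% and 1.37%). DESeq2 called 3 members higher in hom stem libraries (Ephx1, Ccng1 and Plk2; 0.249% of all genes), 1 in TA (Ephx1; 0.132%) and 0 in Paneth libraries (0.00621%), and 0 lower in stem (0.897%), TA (0.308%) or Paneth libraries (0.031%). By limma voom with the animal as a random block 0 members passed in each fraction. Of all genes it called 0.0155% higher and 0.206% lower in stem, 0% and 0.0103% in TA, and 0% and 0.00516% in Paneth libraries.

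In sign, 23 of 33 members were higher in hom stem libraries with a median log2 fold change of 0.13, where the median over all genes was 0.0044. In TA libraries 23 of 32 members were higher with a median of 0.18 (all genes 0.00032), and in Paneth libraries 17 of 33 were higher with a median of 0.049 (all genes -0.0031). Without BN44 and BN45 the medians were 0.24, 0.19 and 0.0096 in stem, TA and Paneth libraries. The stem median was 0.30 without BN44, 0.076 without BN45 and 0.25 without BP04. The Paneth median was -0.048 without BO27 and -0.15 without TMM scaling, which itself moved the median of all genes by -0.17 there. Members that did not overlap between the genotypes and were higher in hom numbered 3 in stem (all genes 1.84%), 2 in TA (1.89%) and 1 in Paneth libraries (0.813%), and 1 member, Ei24 in stem libraries, was lower without overlap (3.05%), against 0 lower in TA (2.18%) and 0 in Paneth libraries (1.01%).

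**Figure D2:**
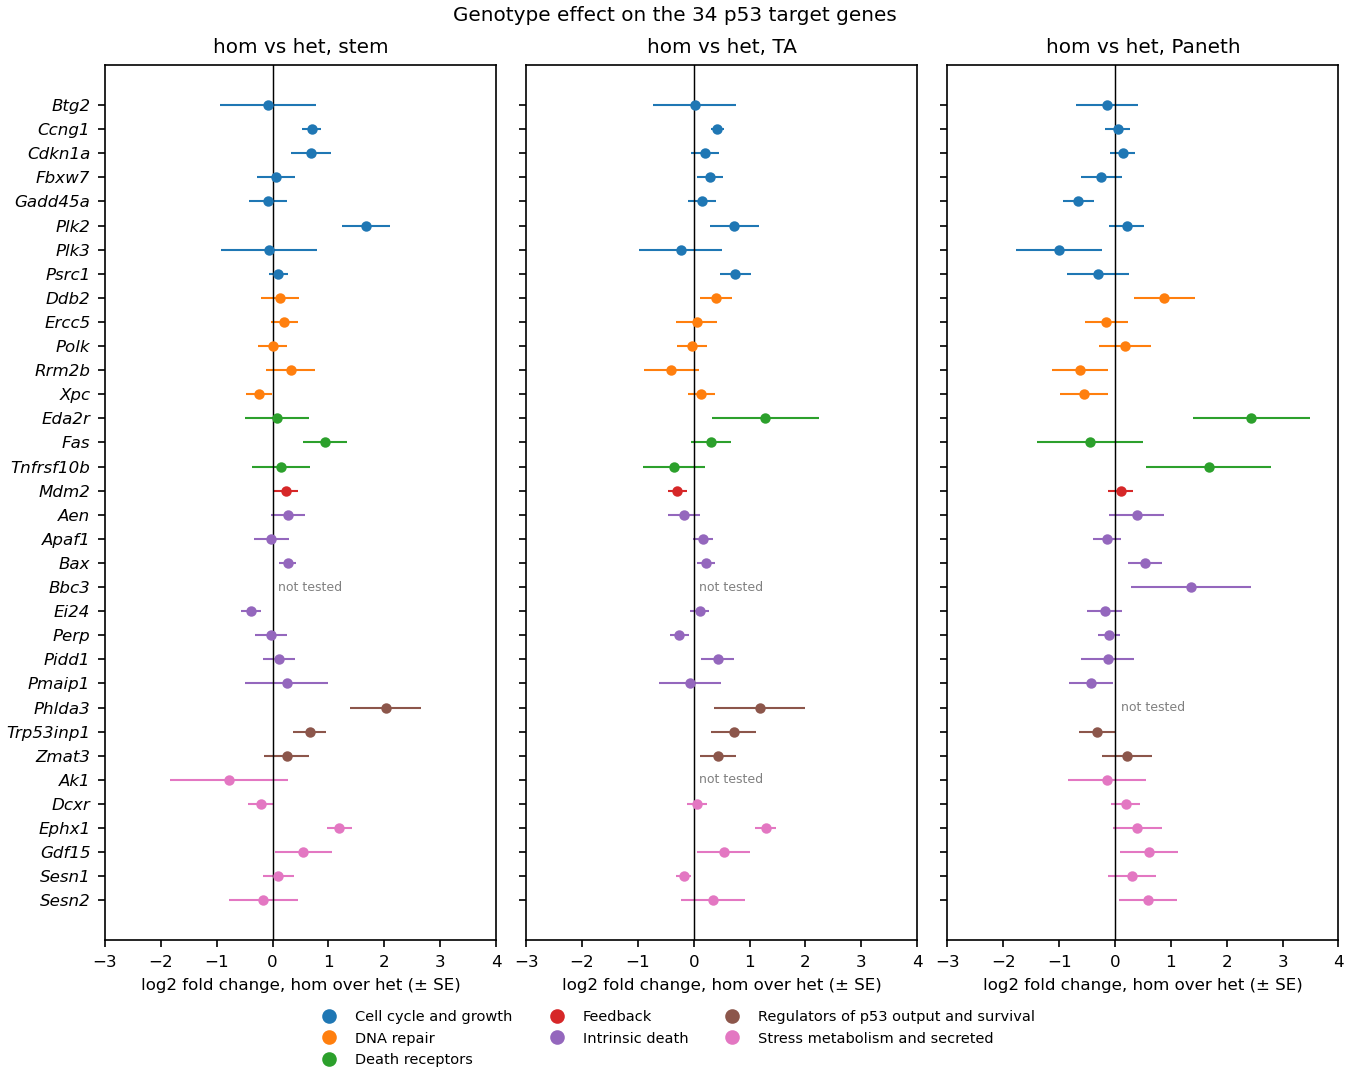
Log2 fold change of hom over het with its SE for each of the 34 members in stem, TA and Paneth libraries (n = 4 per group), coloured by role. Points lie mostly right of 0 in stem and TA libraries (23 of 33 and 23 of 32) and on both sides in Paneth libraries (17 of 33), and 0 passed the edgeR threshold.

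Among genes of stress metabolism, Ephx1, the microsomal epoxide hydrolase that detoxifies reactive epoxides, had the smallest p of all members in stem and in TA libraries. It stood at 105, 62.9, 52.8 and 91.7 CPM in hom stem libraries, against 30.4, 39.7, 36.6 and 28.8 CPM in het. In TA libraries it stood at 81.8, 58.2, 47.9 and 65.1 CPM in hom, against 24.8, 27.6, 21.8 and 30.5 CPM in het. All hom libraries lay above all het libraries in both fractions. The log2 fold change was 1.20 ± 0.23 (SE) in stem (edgeR adjusted p = 0.165) and 1.29 ± 0.19 in TA libraries (edgeR adjusted p = 0.0975). By DESeq2 the adjusted p was 0.000227 in stem and 4.82e-07 in TA libraries. With only genes of a mean of at least 5 CPM tested, Ephx1 passed in TA by edgeR (adjusted p = 0.0334) and not in stem libraries (0.0636), where 0.0195% of all genes in TA and 0.0193% in stem libraries were called higher. Leaving out each animal in turn, the log2 fold change ran from 1.02 to 1.34 in stem and from 1.14 to 1.40 in TA libraries. In both fractions BN45 was the highest hom library and BO57 the lowest. In Paneth libraries Ephx1 stood at 14.4, 28.2, 7.55 and 22.8 CPM in hom, against 8.23, 23.7, 12.3 and 11.01 CPM in het, so that the genotypes overlapped.

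The other 5 genes of this role passed in no fraction and overlapped between the genotypes wherever they were tested. Gdf15, a secreted stress cytokine, was at 6.63 ± 3.09 CPM in hom and 4.53 ± 3.15 CPM in het stem libraries (SD, n = 4), with log2 fold changes of 0.55, 0.53 and 0.61 in stem, TA and Paneth libraries. Sesn1 and Sesn2, sestrins that restrain mTORC1, had log2 fold changes of 0.10 and -0.16 in stem libraries and of 0.30 and 0.59 in Paneth libraries. Without BN44 and BN45 the stem value of Sesn2 was 0.39 ± 0.72. Dcxr, a carbonyl reductase, lay at -0.21 in stem and Ak1, an adenylate kinase, at -0.78 in stem libraries, and Ak1 was too low to be tested in TA libraries.

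Of the 8 genes of the cell cycle and growth, 5 were higher in hom stem libraries, 7 in TA and 3 in Paneth libraries. Ccng1, a cyclin that recruits protein phosphatase 2A to Mdm2, stood at 132, 177, 175 and 169.6 CPM in hom stem libraries, against 78.1, 122.5, 104 and 97.0 CPM in het. In TA libraries it stood at 145, 165, 141 and 148 CPM in hom, against 99.3, 110.3, 120.5 and 122 CPM in het. In both fractions every hom library lay above every het library. The log2 fold change of Ccng1 was 0.70 ± 0.17 (SE) in stem (edgeR adjusted p = 0.284; DESeq2 0.0164) and 0.42 ± 0.12 in TA libraries (edgeR adjusted p = 0.635; DESeq2 0.122). Paneth libraries held 73.5 to 141 CPM in hom and 94.8 to 115 CPM in het.

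Plk2, a polo-like kinase that acts after genotoxic stress, stood at 46.7, 31.5, 38.1 and 24.5 CPM in hom stem libraries, against 11.7, 20.5, 3.81 and 8.06 CPM in het, again without overlap. Its log2 fold change of 1.67 ± 0.44 (SE) did not pass by edgeR (adjusted p = 0.338) and passed by DESeq2 (0.00617). In TA libraries Plk2 stood at 18.4, 8.13, 7.62 and 10.8 CPM in hom, against 3.66, 10.7, 3.54 and 9.49 CPM in het, and the genotypes overlapped (log2 0.72 ± 0.44). Without BN44 and BN45 the log2 fold change of Plk2 was 1.53 ± 0.55 in stem and 0.16 ± 0.41 in TA libraries.

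Cdkn1a, the inhibitor of cyclin-dependent kinases known as p21, stood at 9.67, 14.4, 15.3 and 14.1 CPM in hom stem libraries, against 8.82, 3.83, 6.77 and 13.9 CPM in het. The hom libraries other than BN45 lay above all het libraries, BP03 being close below them, and BN45 lay inside the het range (log2 0.68 ± 0.36, edgeR adjusted p = 0.803). In TA and Paneth libraries its log2 fold changes were 0.21 ± 0.25 and 0.14 ± 0.22. Psrc1, a microtubule-associated protein of the mitotic spindle, stood at 22.6, 16.3, 12.5 and 10.7 CPM in hom TA libraries, against 11.2, 6.29, 8.81 and 11.3 CPM in het, with overlap of BP04 alone (log2 0.74 ± 0.28, edgeR adjusted p = 0.795). In stem libraries Psrc1 differed by a log2 of 0.10.

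Gadd45a, a stress sensor that arrests cells in G2, had the smallest p of all members in Paneth libraries, and in the opposite direction: 27.0, 35.6, 32.8 and 19.5 CPM in hom, against 44.7, 64.2, 38.3 and 33.4 CPM in het. The log2 fold change was -0.66 ± 0.27 (SE), with an unadjusted p of 0.0358 and an edgeR adjusted p of 1.0, and the highest hom library exceeded the lowest het library. Of its exon bases 19.1% are shared with a gene on the other strand, and counting was unstranded. Plk3 stood at 3.06, 0.615, 4.34 and 1.36 CPM in hom Paneth libraries, against 10.2, 3.33, 1.33 and 3.81 CPM in het, and het BN44 was the highest of the 8. The log2 fold change was -1.0 ± 0.77 with all animals and, without BN44 and BN45, -0.46 ± 0.91. Fbxw7, the substrate receptor of an SCF ubiquitin ligase, ran from -0.24 in Paneth to 0.29 in TA libraries.

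Leaving out the BN animals moved Btg2 and Plk3 as well. With all animals its log2 fold change was -0.074 ± 0.86 (SE) in stem libraries. Without BN44 and BN45 it was 0.56 ± 0.25 (unadjusted p = 0.057; edgeR adjusted p = 0.804), with 458.5, 82.8, 108 and 91.3 CPM in hom and 595, 46.4, 87.3 and 56.2 CPM in het stem libraries, the first of each being the BN animal. For Plk3 the log2 fold change was -0.066 ± 0.87 with them and 0.86 ± 0.49 without them.

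**Figure D3:**
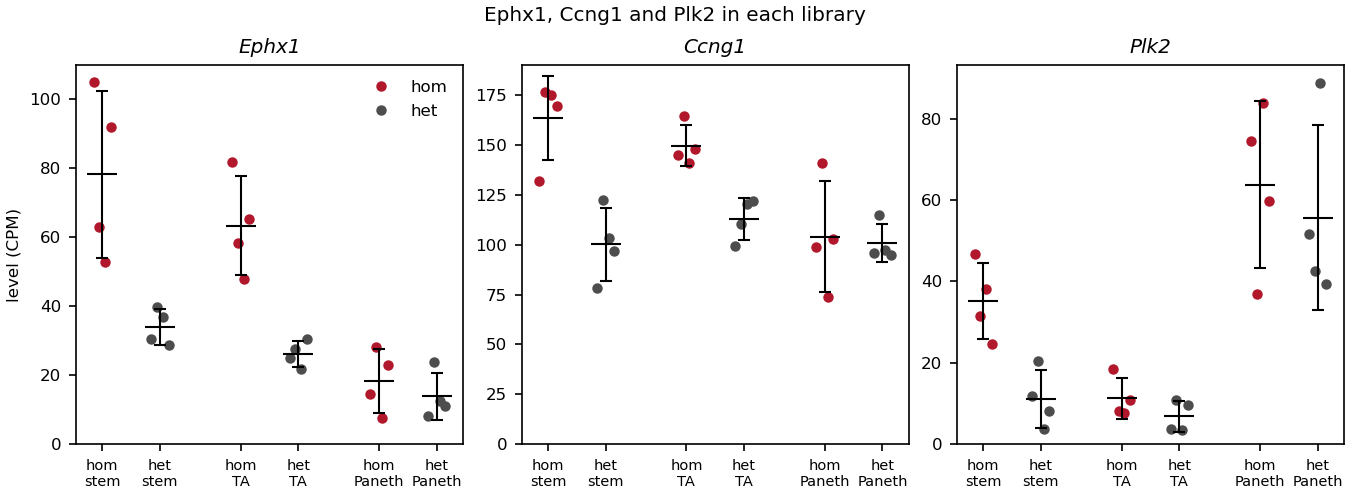
Levels of Ephx1, Ccng1 and Plk2 (CPM) in each library by fraction, hom left of het, with the mean and SD of 4 libraries. In stem libraries the hom points of all 3 genes lie above the het points, for Ephx1 at 52.8 to 105 CPM in hom and 28.8 to 39.7 CPM in het.

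Mdm2, the feedback ligase, differed in sign between the fractions. It stood at 61.5, 49.2, 44.9 and 30.5 CPM in hom stem libraries, against 40.8, 46.3, 32.6 and 38.0 CPM in het (log2 0.24 ± 0.22). In TA libraries it stood at 37.8, 42.2, 33.6 and 36.4 CPM in hom, against 44.8, 54.0, 33.6 and 53.7 CPM in het, a difference of the other sign (log2 -0.30 ± 0.17, edgeR adjusted p = 0.923). The genotypes overlapped in every fraction.

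Of the intrinsic death genes, 4 of 7 tested were higher in hom stem libraries, 4 of 7 in TA and 3 of 8 in Paneth libraries. Bax, the pore-forming effector of mitochondrial cell death, stood at 31.4, 38.5, 30.3 and 35.8 CPM in hom Paneth libraries, against 29.9, 10.7, 23.7 and 30.1 CPM in het, and was the 1 member that did not overlap there. The gap between the lowest hom and the highest het library was small, and BO27 was far below the other het libraries (log2 0.53 ± 0.30, edgeR adjusted p = 1.0). In stem libraries Bax stood at 35.8, 44.0, 45.0 and 34.6 CPM in hom, against 33.95, 36.1, 31.9 and 30.1 CPM in het (log2 0.27 ± 0.16).

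Ei24, an endoplasmic reticulum protein with a part in autophagy, was the 1 member lower without overlap, at 15.9, 14.9, 13.2 and 15.6 CPM in hom stem libraries, against 22.2, 17.2, 21.6 and 16.6 CPM in het (log2 -0.38 ± 0.17, edgeR adjusted p = 0.747). In TA and Paneth libraries Ei24 overlapped. Pmaip1 was at 263, 58.9, 82.1 and 56.5 CPM in hom stem libraries, against 274, 44.4, 33.5 and 37.1 CPM in het. Its log2 fold change was 0.25 ± 0.75 with all animals and 0.77 ± 0.20 without BN44 and BN45 (unadjusted p = 0.00578; edgeR adjusted p = 0.458), where the 3 hom libraries lay above the 3 het ones. In TA libraries without those animals it was 0.084 ± 0.40.

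Perp stood at 227, 241, 192 and 172 CPM in hom TA libraries, against 329.8, 216.5, 237 and 223 CPM in het (log2 -0.26 ± 0.16). Pidd1, the scaffold that activates caspase-2, stood at 6.19, 10.99, 5.61 and 5.93 CPM in hom, against 4.94, 6.75, 6.25 and 3.66 CPM in het TA libraries (log2 0.43 ± 0.30). Both overlapped, and neither passed. Apaf1, the apoptosome scaffold, ran from -0.14 in Paneth to 0.16 in TA libraries, and Aen, an apoptosis-enhancing nuclease, from -0.17 in TA to 0.39 in Paneth libraries. Bbc3 was tested in Paneth libraries only, at 0.66 ± 0.541 CPM in hom and 0.252 ± 0.22 CPM in het (SD, n = 4).

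The death receptors were at low levels, of at most 10.8 CPM as a group mean. Fas, the receptor of Fas ligand, stood at 8.62, 5.29, 9.65 and 5.03 CPM in hom stem libraries, against 2.98, 3.94, 1.93 and 6.00 CPM in het, where het BP03 exceeded the hom libraries BO25 and BP04 (log2 0.94 ± 0.39, edgeR adjusted p = 0.722). Eda2r, the receptor of ectodysplasin A2, stood at 1.33, 3.94, 1.65 and 6.96 CPM in hom Paneth libraries, against 0.047, 0.0899, 1.81 and 0.589 CPM in het (log2 2.44 ± 1.05, unadjusted p = 0.0406, edgeR adjusted p = 1.0). Tnfrsf10b, the mouse TRAIL receptor, stood at 3.22, 2.30, 3.42 and 0.963 CPM in hom and 1.08, 1.80, 0 and 0.181 CPM in het Paneth libraries (log2 1.68 ± 1.12). With het libraries at or near 0, the size of these last 2 fold changes depends on the prior count of the fit.

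The 3 regulators of p53 output and survival had positive log2 fold changes in hom stem and TA libraries, and none passed. Trp53inp1, a stress protein that feeds back on p53 and on autophagy, stood at 25.5, 47.7, 35.9 and 39.6 CPM in hom stem libraries, against 13.6, 32.9, 19.4 and 27.6 CPM in het (log2 0.67 ± 0.30, edgeR adjusted p = 0.741). In TA libraries it stood at 21.2, 12.9, 11.2 and 8.77 CPM in hom, against 9.55, 5.94, 13.9 and 3.88 CPM in het (log2 0.72 ± 0.40), and in both fractions the genotypes overlapped. Phlda3 stood at 1.66, 1.71, 1.70 and 0.511 CPM in hom stem libraries, against 0.533, 0.394, 0.302 and 0.129 CPM in het, with BP04 below the highest het library (log2 2.02 ± 0.64, edgeR adjusted p = 0.5). Zmat3, an RNA-binding zinc finger protein that acts on splicing, had log2 fold changes of 0.25 ± 0.40 in stem and 0.44 ± 0.32 in TA libraries, and of 0.43 ± 0.48 and 0.042 ± 0.31 without BN44 and BN45. In TA libraries hom BN45 held it at the highest level.

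Of the 5 DNA repair genes, 4 were higher in hom stem, 3 in TA and 2 in Paneth libraries, and the genotypes overlapped in all of them. Ddb2, which recognises ultraviolet lesions, stood at 3.69, 12.5, 5.19 and 6.81 CPM in hom Paneth libraries, against 3.81, 1.21, 4.93 and 5.302 CPM in het (log2 0.88 ± 0.55); 23.8% of its exon bases are shared with Acp2 on the other strand. Xpc, a damage sensor of nucleotide excision repair, stood at 4.86, 13.0, 9.36 and 6.42 CPM in hom and 10.7, 20.1, 11.8 and 6.12 CPM in het Paneth libraries (log2 -0.55 ± 0.43). Rrm2b, the p53-inducible ribonucleotide reductase subunit, stood at 5.57, 5.86, 15.7 and 3.42 CPM in hom and 8.94, 10.9, 7.44 and 19.9 CPM in het Paneth libraries (log2 -0.63 ± 0.50). Ddb2 was thus the higher one in hom, and Xpc and Rrm2b the lower ones. Polk, a translesion polymerase, and Ercc5, the XPG nuclease, ran from -0.15 to 0.21 in log2 fold change over the 3 fractions.

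Whether the genotype effect differed between fractions was tested as an interaction in 1 edgeR fit of all 24 libraries. Of 34 members 0 passed for stem minus TA (all genes 0%; 0 members at an unadjusted p under 0.05 in either direction, all genes 1.49% higher and 2.46% lower) and 0 for stem minus Paneth (all genes 0%; 2 members higher and 0 lower at an unadjusted p under 0.05, all genes 2.98% and 3.3%). By DESeq2 0 members passed in either. It called 0.0206% of all genes higher and 0.0516% lower for stem minus TA, and 0.0773% and 0.17% for stem minus Paneth. For Ephx1 the log2 genotype effect in stem libraries minus that in TA was -0.07 ± 0.47 (SE), and minus that in Paneth libraries 0.81 ± 0.48. For Ccng1 these differences were 0.30 ± 0.24 and 0.66 ± 0.24, and for Plk2 0.96 ± 0.63 and 1.48 ± 0.62. Ccng1 and Plk2 were the 2 members at an unadjusted p under 0.05 in stem minus Paneth (edgeR adjusted p = 0.654 and 0.71). Mdm2, whose sign differed between stem and TA, had a stem minus TA difference of 0.55 ± 0.29 (edgeR adjusted p = 1.0). A difference seen in one fraction and not in another is thus not shown to differ between them. With the animal as a block 0 members passed too. Of all 19396 genes 0 passed then for stem minus TA, and 0 higher and 2 lower for stem minus Paneth.

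Other genes of the pathway were counted in the same fits, from lists that hold no member except Sesn2 in the integrated stress response list. Of 23 other p53 targets, 18 were tested in stem libraries, of which 14 were higher in hom (median log2 0.20), and 18 in TA, of which 10 were higher (0.14), with 0 passing in any fraction. Slc19a2, a thiamine transporter, was at 80.1 ± 5.36 CPM in hom and 59.9 ± 4.52 CPM in het stem libraries (SD, n = 4; log2 0.42 ± 0.13; edgeR adjusted p = 0.483), without overlap. Ckap2, a spindle protein, was at 107.5 ± 30.1 CPM in hom and 77.5 ± 8.72 CPM in het stem libraries (edgeR adjusted p = 0.722), and Tigar, a fructose bisphosphatase, at 4.67 ± 1.05 CPM in hom and 6.84 ± 0.884 CPM in het. The signs were thus mixed within this list as well.

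Among p53 and its regulators, 22 of 24 genes were tested and 0 passed in each fraction. Prkdc, the catalytic subunit of DNA-dependent protein kinase, was at 7.57 ± 0.745 CPM in hom and 13.1 ± 3.48 CPM in het TA libraries without overlap (log2 -0.78 ± 0.24; edgeR adjusted p = 0.67), and at 8.16 ± 2.89 CPM in hom and 15.8 ± 5.10 CPM in het stem libraries. Crebbp, an acetyltransferase that acts on p53, was at 38.0 ± 4.51 CPM in hom and 51.1 ± 4.67 CPM in het stem libraries, without overlap (edgeR adjusted p = 0.611). Of 12 cell cycle genes that p21 and the DREAM complex hold down, 7 were higher in hom stem, 2 in TA and 6 in Paneth libraries, with medians of 0.06, -0.10 and 0.033 and 0 passing. In the integrated stress response list, which shares Sesn2 with the members, Ddit3, the transcription factor CHOP, was at 17.0 ± 4.00 CPM in hom and 9.93 ± 3.00 CPM in het stem libraries, without overlap (edgeR adjusted p = 0.539). Ddit3 too was highest in the BN animal in 6 of 6 groups.

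The second comparison set the fractions of the same animals against each other within each genotype. The 2 genotypes use different libraries, so each has its own test, while all comparisons within a genotype share libraries. Cdkn1a differed between all 3 fractions: it rose in Paneth libraries over both other fractions and fell in stem below TA libraries, in hom and in het mice. It stood at 188, 221, 284 and 186 CPM in hom Paneth, 9.67, 14.4, 15.3 and 14.1 CPM in hom stem and 29.6, 43.5, 47.6 and 35.5 CPM in hom TA libraries. In het mice it stood at 139, 224, 196 and 242 CPM in Paneth, 8.82, 3.83, 6.77 and 13.9 CPM in stem and 26.6, 31.8, 26.4 and 52.0 CPM in TA libraries. No library of one fraction reached the range of another. The log2 fold change of Paneth over stem was 4.07 ± 0.22 (SE) in hom and 4.61 ± 0.40 in het (edgeR adjusted p = 2.74e-06 and 4.01e-05), that of Paneth over TA 2.52 ± 0.20 and 2.57 ± 0.28 (5.72e-05 and 0.000219), and that of stem over TA -1.55 ± 0.22 and -2.03 ± 0.39 (0.00453 and 0.0154). The stem against TA call ended without BO25 in hom mice (0.0505), and without BO27 (0.0684) or BO58 (0.0847) in het mice.

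**Figure D4:**
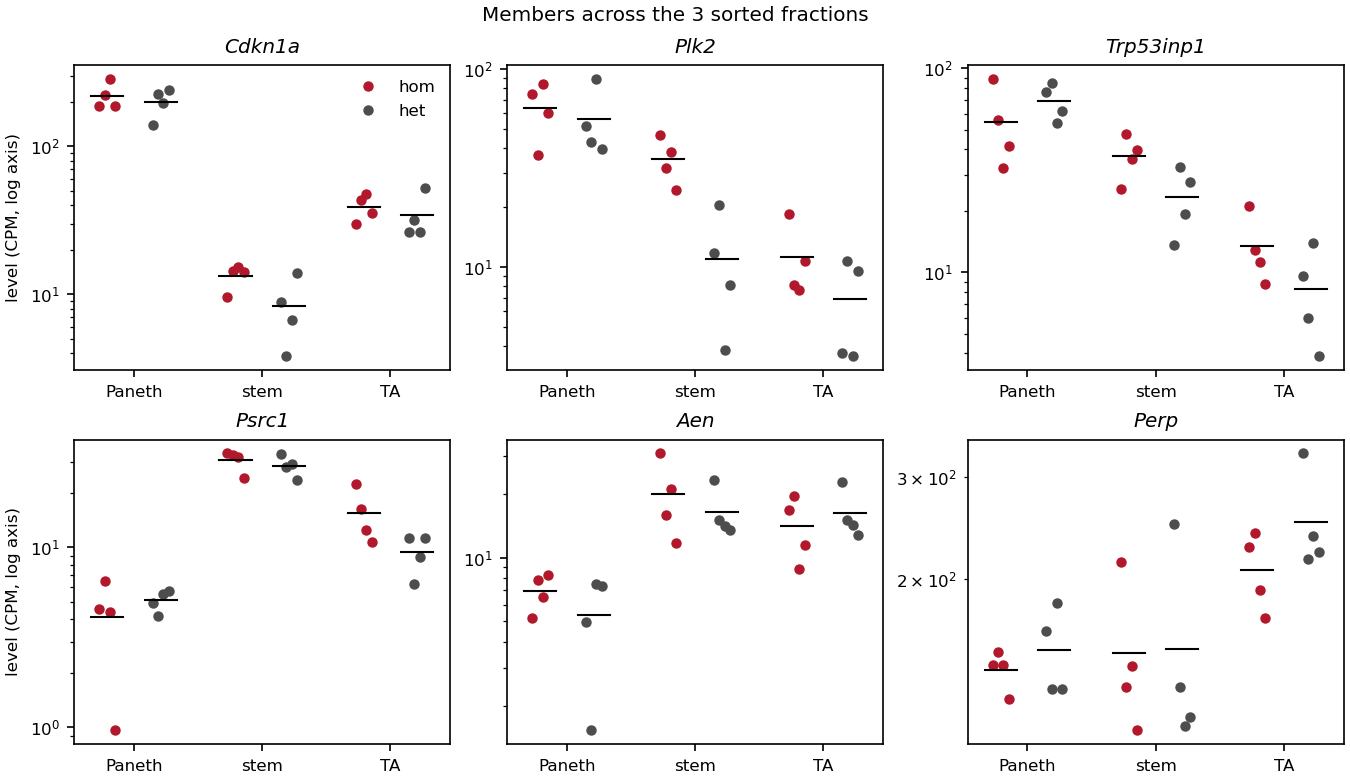
Levels of 6 members (CPM, log axis) in Paneth, stem and TA libraries, hom in red left of het in grey, with lines at the mean of 4 libraries. Cdkn1a, Plk2 and Trp53inp1 are highest in Paneth libraries (Cdkn1a at 139 to 284 CPM), Psrc1 is highest in stem libraries, Aen is lowest in Paneth and Perp highest in TA libraries by their means.

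Between Paneth and TA libraries, 5 members rose and 7 fell in hom mice (34 tested), where 16.3% and 12.2% of all genes did, and 6 rose and 4 fell in het mice (32 tested), where 17.4% and 11.8% of all genes did. The members' counts are close to what these background shares give, except for more lower calls in hom mice, a difference that was not tested. Plk2 rose to 74.7, 36.9, 83.8 and 59.9 CPM in hom Paneth libraries, against 7.62 to 18.4 CPM in hom TA, and to 51.8, 42.5, 88.9 and 39.4 CPM in het Paneth, against 3.54 to 10.7 CPM in het TA libraries (log2 2.53 ± 0.36 and 3.04 ± 0.45). Trp53inp1 rose to 88.6, 55.7, 32.6 and 41.6 CPM in hom Paneth, against 8.77 to 21.2 CPM in hom TA, and to 76.7, 84.4, 53.9 and 61.5 CPM in het Paneth, against 3.88 to 13.9 CPM in het TA libraries (log2 2.06 ± 0.39 and 3.08 ± 0.38). Gadd45a rose in both genotypes as well (log2 0.91 ± 0.24 in hom and 1.70 ± 0.29 in het). Mdm2 rose in hom mice, at 42.8 to 59.2 CPM in hom Paneth, against 33.6 to 42.2 CPM in hom TA libraries (log2 0.50 ± 0.15, edgeR adjusted p = 0.03), and the sign turned without TMM scaling (-0.13). In het mice Rrm2b rose besides (log2 1.62 ± 0.37), and Ak1, at 1.77 to 3.25 CPM in het Paneth, against 0 to 0.485 CPM in het TA libraries.

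The members that fell in Paneth below TA libraries came from several roles, intrinsic death genes the most. Aen fell to 5.18, 7.83, 6.50 and 8.28 CPM in hom Paneth, against 16.8, 19.6, 8.81 and 11.4 CPM in hom TA, and to 4.99, 1.53, 7.48 and 7.34 CPM in het Paneth, against 22.6, 15.0, 14.3 and 12.7 CPM in het TA libraries, without overlap (log2 -1.01 ± 0.30 and -1.58 ± 0.45). With the animal as a block its adjusted p in hom mice was 0.052. Perp fell in both (log2 -0.54 ± 0.16 in hom and -0.71 ± 0.20 in het), with 124 to 150.1 CPM in hom Paneth, against 172 to 241 CPM in hom TA libraries. Sesn1 fell to 15.4, 27.8, 45.5 and 35.7 CPM in hom Paneth, against 50.1 to 60.4 CPM in hom TA, and to 13.5, 12.2, 31.3 and 44.2 CPM in het Paneth, against 53.4 to 71.3 CPM in het TA libraries (log2 -0.80 ± 0.26 and -1.28 ± 0.38). The library of the BN animal was the lowest Paneth one for Sesn1 in hom mice, and BO27 in het mice. Pmaip1 fell to 17.6, 20.1, 21.5 and 14.4 CPM in hom Paneth, against 132, 34.7, 51.5 and 66.5 CPM in hom TA libraries (log2 -1.93 ± 0.38, edgeR adjusted p = 0.00483), and its -1.59 ± 0.57 in het mice passed with the animal as a block and not without it (0.0591). Psrc1 (log2 -1.89 ± 0.51), Ephx1 (-1.77 ± 0.36) and Bax (-0.53 ± 0.18) fell in hom mice, and Ddb2 (-1.54 ± 0.46) in het mice. Whether the Paneth to TA differences differ between genotypes was not tested.

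Fits with 1 animal left out rest on fewer libraries, and the share of all genes they called between fractions is not given here. The calls kept or lost in them, here and below, are thus not read as a result about the members. Of the 12 calls in hom mice 4 held whichever animal was left out (Cdkn1a, Plk2, Trp53inp1 and Pmaip1), and 5 members in all passed without BN45, 7 without BO25, 6 without BO57 and 7 without BP04. Mdm2, Bax, Aen and Perp lost their calls without any 1 animal (highest edgeR adjusted p = 0.17, 0.162, 0.154 and 0.0949). Ephx1 lost it without BN45 (0.0508), Psrc1 without BN45 or BO57 (0.0969), Gadd45a without BO25 or BO57 (0.116) and Sesn1 without BN45, BO25 or BP04 (0.151). Of the 10 in het mice 4 held (Cdkn1a, Plk2, Trp53inp1 and Gadd45a) and 5 members in all passed without BP03. Rrm2b lost its call without BP03 (0.0784), Aen without BN44 or BP03 (0.134), Sesn1 without BN44, BO27 or BO58 (0.127), Perp without BN44, BO27 or BP03 (0.1), Ddb2 without BN44, BO58 or BP03 (0.155) and Ak1 without BO27, BO58 or BP03 (0.109). Without TMM scaling the median of all genes moved by -0.66 in hom and -0.49 in het mice, and the hom calls of Mdm2 and Gadd45a ended (0.785 and 0.587). Under this setting 3 members rose and 10 fell in hom mice, where 1071 of all 16161 genes tested rose and 3778 fell. In het mice 6 members rose and 9 fell, where 1513 of all 16177 genes tested rose and 3470 fell.

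Between Paneth and stem libraries, 4 members rose and 6 fell in hom mice (34 tested; all genes 17.4% and 13.2%), and 5 rose and 5 fell in het mice (32 tested; all genes 17.3% and 11%). Gadd45a rose to 19.5 to 35.6 CPM in hom Paneth, against 12.5 to 14.7 CPM in hom stem, and to 33.4 to 64.2 CPM in het Paneth, against 5.95 to 20.3 CPM in het stem libraries (log2 1.15 ± 0.23 and 1.72 ± 0.39). Plk2 rose by a log2 of 0.89 ± 0.29 in hom and 2.36 ± 0.47 in het mice, and the hom ranges overlapped. Dcxr rose in hom mice (0.80 ± 0.23), and Trp53inp1 (1.59 ± 0.30) and Rrm2b (1.84 ± 0.43) in het mice. Psrc1 fell to 4.55, 6.52, 4.39 and 0.963 CPM in hom Paneth, against 33.3, 32.6, 32.0 and 24.2 CPM in hom stem, and to 4.94, 4.18, 5.48 and 5.76 CPM in het Paneth, against 33.1, 28.0, 28.9 and 23.6 CPM in het stem libraries (log2 -2.87 ± 0.48 and -2.46 ± 0.24). Ephx1 (log2 -2.07 ± 0.39 in hom and -1.26 ± 0.33 in het), Aen (-1.50 ± 0.33 and -1.61 ± 0.45) and Ddb2 (-1.50 ± 0.40 and -2.25 ± 0.47) fell in both genotypes, Ddb2 to 3.69 to 12.5 CPM in hom Paneth, against 11.1 to 27.3 CPM in hom stem libraries. Pmaip1 (-2.63 ± 0.50) and Ccng1 (-0.62 ± 0.21) fell in hom mice and Eda2r in het mice, to 0.047 to 1.81 CPM in het Paneth, against 3.35 to 6.97 CPM in het stem libraries.

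Without BN45 6 members passed in hom mice. Calls that ended without 1 animal in hom mice were Ccng1 and Plk2 (BN45, BO57 or BP04; highest edgeR adjusted p = 0.189 and 0.158), Dcxr (BN45, BO25 or BO57; 0.141) and Ddb2 (BN45 or BO57; 0.115). In het mice they were Ephx1 (BN44, BO58 or BP03; 0.0739), Eda2r (BN44, BO27 or BP03; 0.131), Aen (BN44; 0.126), Gadd45a (BO27; 0.0614) and Rrm2b (BP03; 0.0832). Without TMM scaling the calls of Plk2, Gadd45a and Dcxr in hom mice (edgeR adjusted p = 0.639, 0.273 and 0.673) and of Rrm2b in het mice (0.0519) ended, as the median of all genes moved by -0.63 and -0.51. Under this setting 1 member was higher and 8 lower in hom mice, where 1223 of all 16226 genes tested were higher and 3616 lower. In het mice 4 members were higher and 9 lower, where 1497 of all 16230 genes tested were higher and 3448 lower. All 12 cell cycle genes under p21 and DREAM fell in Paneth libraries in each genotype, below stem (median log2 -1.73 in hom and -1.75 in het) and below TA libraries (-1.70 and -1.77). The fall was not confined to that list: all 5 general markers of cycling cells (Mki67, Top2a, Pcna, Mcm6 and Ccnb1, the last being in both lists) fell as well, with medians of -1.46 in hom and -1.49 in het against stem and -1.58 in hom and -1.36 in het against TA libraries. Of all genes, 13.2% in hom and 11% in het fell against stem and 12.2% and 11.8% against TA libraries. The Paneth fraction held Trp53 at 27.7 to 80.2 CPM in hom and 39.9 to 57.8 CPM in het libraries, below the stem libraries in each genotype. It also held the tuft and enteroendocrine transcripts given above, and their part in these levels was not tested.

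Between stem and TA libraries few members passed. In hom mice 2 rose and 1 fell (34 tested; all genes 2.03% and 2.58%), and in het mice 1 rose and 1 fell (33 tested; all genes 2.69% and 3.57%). Psrc1 rose in het stem libraries to 23.6 to 33.1 CPM, against 6.29 to 11.3 CPM in het TA libraries (log2 1.60 ± 0.21, edgeR adjusted p = 0.00306), whichever animal was left out. In hom mice it was 0.97 ± 0.25 (edgeR adjusted p = 0.0553), and passed with the animal as a block. Plk2 rose in hom stem libraries to 24.5 to 46.7 CPM, against 7.62 to 18.4 CPM in hom TA libraries (log2 1.64 ± 0.32, edgeR adjusted p = 0.0186), and Trp53inp1 to 25.5 to 47.7 CPM, against 8.77 to 21.2 CPM (log2 1.46 ± 0.29, 0.0228). In het mice these were 0.68 ± 0.53 (0.54) and 1.49 ± 0.41 (0.0628). Plk2 and Trp53inp1 lost their calls without BO25, BO57 or BP04 (highest edgeR adjusted p = 0.117 and 0.149), so that 0 members passed without BO25 and 1, Cdkn1a, without BO57 or without BP04. In het mice 1 passed without BO27 or without BO58, and 5 with the animal as a block (Xpc and Psrc1 higher, Cdkn1a, Perp and Fas lower; all genes 5.09% and 6.33%).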

How the data were processed

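RNA-seq counts per gene were deposited by the authors for 24 libraries, made with featureCounts 2.0.1 and bcl2fastq 2.20.0 on mm10 with Ensembl 98, per the submitters' processing notes, and counted unstranded with a minimum mapping quality of 1, per the file headers. From these raw counts, edgeR 4.0.16 (R 4.3.3) computed TMM-scaled CPM and fitted the quasi-likelihood test over all genes that passed its filter on low counts in each comparison, with Benjamini-Hochberg adjustment over all genes tested. The 92 spike-in rows, with at most 6 counts in a library, were left out. Groups come from the labels. DESeq2 1.42.0 and limma 3.58.1 were alternatives. Only the main edgeR fit of hom against het stem libraries was tried on simulated counts. The members and lists were chosen with earlier results of these data known. Values are given for the 8 members of smallest p with a mean of at least 1 CPM per genotype comparison and up to 6 called members per direction between fractions, and up to 3 genes of smallest p were eligible per other list. The fractions of 1 animal share its number in the labels, so these libraries are paired by animal, with correlations of deviations from group means of -0.019 to 0.247. In the comparisons of genotypes within a fraction, p-values measure the spread between these mice. The main fits between fractions and of the interaction had no term for the animal. Their p-values therefore do not use this pairing and treat libraries of the same mouse as independent. The animal as a block was an alternative setting, and it changed calls in most comparisons between fractions. Figures were drawn with matplotlib 3.10.9.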

Additional observations from a re-analysis of the deposited data

Results flagged for a closer look

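In 23 of 204 groups of 4 libraries, 1 library lay farther from its neighbour, as a share of the group's range, than Dixon's 95% critical value for 4 values, where chance alone gives about 5% of groups. In 16 of the 23 that library was BN44 or BN45. The highest library of Btg2 was BN45 in hom stem (gap over range 0.933) and hom TA (0.894) and BN44 in het stem (0.925), het TA (0.904) and het Paneth libraries (0.942). Pmaip1 was highest in BN45 in hom stem (0.876) and in BN44 in het stem libraries (0.954). Plk3 was highest in BN45 in hom stem (0.929) and in BN44 in het stem (0.916) and het TA libraries (0.877). BN44 was also the highest het stem library for Sesn2 (0.848), Aen (0.847) and Perp (0.863), and the highest het TA library for Ddb2 (0.961) and Ak1 (0.867). BN45 was the lowest hom stem library for Ccng1 (0.838). Of the other animals, BP04 was the lowest hom stem library for Phlda3 (0.964) and Psrc1 (0.854), and the highest hom stem library for Apaf1 (0.855) and the highest hom TA library for Fbxw7 (0.903). BO27 was the highest het Paneth library for Ccng1 (0.864) and the highest het TA library for Tnfrsf10b (0.831), and BO25 was the highest hom TA library for Pidd1 (0.891).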

How the results depend on the processing

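Under other settings, 118 counts of members called stayed within 1.5 times the original count and 17 did not, while of the values of single members 964 kept their direction and side of the threshold, 75 lost and 5 gained a call and 14 reversed. Between genotypes DESeq2 called 3 members higher in hom stem (0.249% of all genes) and 1 in hom TA libraries (0.132%). Testing genes of at least 5 CPM called 1 higher in hom TA libraries (0.0195%). DESeq2 also called more members than edgeR in every comparison between fractions, in both genotypes. The share of all genes it called there is not given here, so this is not read as a result about the members. The cause was not tested. With the replicate block of the animal 5 members passed for het stem against TA libraries. Leaving out 1 animal each, the members called ran from 5 to 8 for het Paneth against TA, 1 to 3 for het stem against TA, 5 to 7 for hom Paneth against TA, 0 to 3 for hom stem against TA and 6 to 10 for hom Paneth against stem libraries. The share of all genes called in these fits is not given here, so these counts are not read as a result about the members. In the stem minus TA genotype effect, Bax reversed to -0.0055 without TMM and ran from -0.11 to 0.16 without 1 animal each, Trp53inp1 reversed to 0.048 with the replicate block and 0.15 without both BN animals and ran from -0.47 to 0.42, and Ephx1 ran from -0.22 to 0.052. In stem minus Paneth, Ei24 reversed to 0.038 without TMM and 0.26 without both BN animals and ran from -0.34 to 0.11, and Bax ran from -0.43 to 0.017. Mdm2 in hom Paneth against TA libraries reversed to -0.13 without TMM.

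Animals of neighbouring ID numbers, 1 of each genotype, share no label that pairs them. A replicate block on them left 0 members called in each genotype comparison. Their correlations of deviations ran from -0.001 to 0.227, were over 0.1 in 4 of 12 cases, and 20 of 24 libraries correlated best with their own neighbour, a hint from the data and not the design. The replicate block of the animal changed no call in the interactions. Leaving out BN44 and BN45, and summing stem and TA counts per animal, were chosen after seeing the data. With 4 mice a group, low counts limit Bbc3, Phlda3, Ak1, Eda2r and Tnfrsf10b.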
